A study of Homo sapiens with 3 samples.

Results

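The human genes for aminoacyl-tRNA synthetases were followed in HGC-27 cells after RNA interference, together with AIMP1 and AIMP2, the scaffold proteins that hold several of these enzymes in a complex. The members were taken by gene symbol from a fixed list of 38 names, and each name matched 1 of the 50868 genes in the deposited table. Of these, 20 encode cytosolic enzymes or their subunits, 16 encode mitochondrial enzymes (symbols ending in ARS2) and 2 encode scaffolds. HGC-27 is an established cell line from a gastric carcinoma. There were 3 cultures of it, all at passage 6 and all harvested 48 h after siRNA transfection: the first received a control siRNA, the second an IRF3 siRNA (IRF3 drives interferon genes in antiviral defence) and the third a YAP siRNA (YAP is the coactivator that Hippo signalling holds back). Each condition had 1 RNA sequencing library, so no difference has a replicate check and no p-value is given. What separate cultures of the same condition would give was not measured.

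Each synthetase joins an amino acid to the transfer RNAs that decode it, and the charged tRNA is then carried to the ribosome by an elongation factor. Most amino acids are served by a pair of nuclear genes, of which the first encodes the enzyme of the cytosol and the other an enzyme imported into mitochondria, while GARS and KARS encode both forms. The enzymes fall into class I and class II by the fold of their catalytic domain. In animals, several cytosolic enzymes sit together in the multisynthetase complex on the scaffolds AIMP1, AIMP2 and EEF1E1. Many cytosolic synthetase genes are targets of ATF4, the transcription factor that answers amino acid shortage, and WARS is known to be induced by interferon.

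Libraries held 13949401 (control), 14941556 (IRF3 siRNA) and 14385959 (YAP siRNA) counts. YAP1 had 5.89 FPKM in the control, 3.58 after IRF3 siRNA and 2.23 after YAP siRNA, and IRF3 had 3.55 FPKM in the control, 2.90 after IRF3 siRNA and 3.86 after YAP siRNA, so the level of IRF3 was 0.818 of control by counts in the library labelled IRF3 siRNA (95% counting interval 0.732 to 0.915). IRF3 shares exon sequence with BCL2L12, whose counts were 560, 710 and 679, so it checks that label only weakly. The epithelial markers EPCAM, CDH1, KRT8, KRT18 and KRT19 were all below 1 FPKM in every library, as were the stomach markers MUC5AC, MUC6, TFF1, TFF2, GKN1 and CLDN18, while the mesenchymal markers differed among themselves, with VIM at 511, 451 and 469 FPKM, FN1 at 9.33, 6.16 and 7.14 and CDH2 at 0.056, 0.073 and 0.13. The endothelial markers PECAM1, VWF and CDH5 and the leukocyte marker PTPRC were at 0.115 FPKM or less. Of the red cell genes, HBB had 4.79, 4.63 and 4.09 FPKM and HBA1 2.63, 3.97 and 2.95 FPKM, where the count ratio of HBA1 to control after IRF3 siRNA was 1.51 (1.09 to 2.10). The part of these genes in the results was not tested.

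All 38 members were expressed, with a mean of at least 1 FPKM over the 3 libraries (fragments per kilobase of gene, scaled to the library total), as for 11103 genes in all. Single members had between 139 and 12559 counts per library. AARS, the alanine enzyme, had the highest level, with 147 FPKM in the control, 145 after IRF3 siRNA and 149 after YAP siRNA. SARS, for serine, followed at 99.5, 95.3 and 98.8 FPKM in the same order of libraries, and GARS, for glycine, at 81.2, 67.7 and 71.2 FPKM. The AARS and SARS levels varied little between libraries, while GARS was highest in the control. At the other end of the cytosolic list, DARS, for aspartate, had 8.69, 6.86 and 7.10 FPKM, and HARS, for histidine, had 6.24, 7.74 and 9.77 FPKM, lowest in the control. The lowest member of all was WARS2, the mitochondrial tryptophan enzyme, at 1.67, 1.45 and 1.90 FPKM.

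The median cytosolic enzyme stood at 20.1 FPKM in the control, 17.3 after IRF3 siRNA and 18.7 after YAP siRNA, beside 7.33, 8.18 and 7.64 FPKM for the median mitochondrial enzyme. Cytosolic synthetases took 0.527% of all counts in the control (95% exact Clopper-Pearson interval 0.523 to 0.531), 0.510% after IRF3 siRNA (0.506 to 0.514) and 0.510% after YAP siRNA (0.506 to 0.514). Mitochondrial synthetases took 0.0761% (0.0746 to 0.0776), 0.0777% (0.0763 to 0.0791) and 0.0777% (0.0762 to 0.0791) in that order. The cytosolic share was thus higher in the control library than in the others by more than counting error, and the mitochondrial intervals overlapped. Copies made by PCR are no independent molecules, and these and all later intervals cover counting error only. In bulk samples such as these, fewer cells of a kind and less RNA per cell cannot be told apart.

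**Figure D1:**
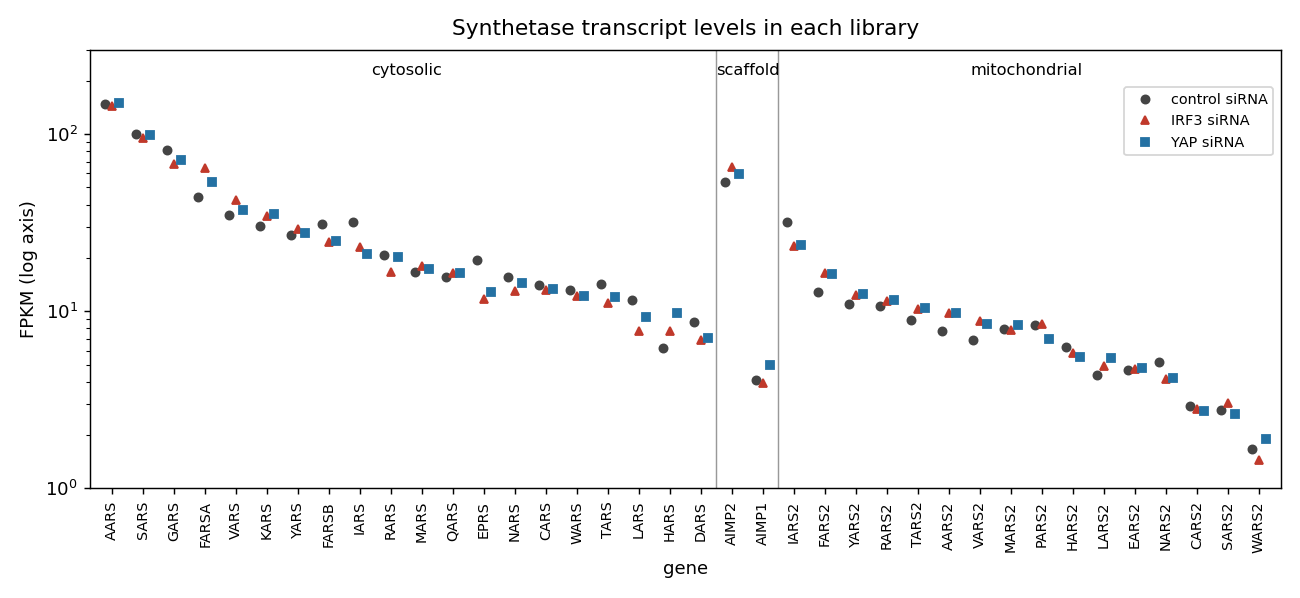
The FPKM of each member in the 3 libraries (log axis; circles, control siRNA; triangles, IRF3 siRNA; squares, YAP siRNA), ordered by mean level within the cytosolic, scaffold and mitochondrial groups. AARS has the highest and WARS2 the lowest level, and the 3 libraries lie close together for most members.

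Log2 ratios between libraries were computed on FPKM plus 1, and a gene was called when this ratio reached 2-fold. None of the 38 members was called in any comparison. Over all 11103 genes kept, 1.0% were called after IRF3 siRNA against control, 0.820% after YAP siRNA against control and 0.612% between the knockdowns, so the members' count is near this background. At a lower threshold of 1.5-fold, EPRS after IRF3 siRNA was the single member called (lower), where 5.88% of all genes were lower and 1.59% higher. With YAP siRNA no member passed 1.5-fold on this scale, where 4.64% of all genes were lower and 1.59% higher, and between the knockdowns none did, where 1.28% were lower and 1.18% higher. These calls depend on the scale. EPRS was not called with the trend in level, exon length and GC content removed, and FARSA was called higher after IRF3 siRNA with TMM-scaled CPM (0.63). After YAP siRNA HARS was called higher with TMM-scaled CPM (0.73) and with the trend removed (0.70). IARS was called lower after YAP siRNA in the setting with overlapping genes summed (-0.59, beside -0.58 in the main setting). IARS has no overlapping gene, so nothing was summed for it, but that setting also recomputed FPKM from annotated exon length. By counts alone, with no pseudocount, EPRS and LARS passed 1.5-fold after IRF3 siRNA, and EPRS, IARS and HARS after YAP siRNA. The comparisons of both knockdowns share the 1 control library, so that their values are not independent of each other.

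Smaller differences exceeded counting error for many members. With IRF3 siRNA, 12 of the 38 had a count ratio to control whose 95% interval lay above 1 and 14 had an interval below 1, which is 31.6% and 36.8% of members beside 24.3% and 32.6% of all genes kept. With YAP siRNA these were 12 and 13 members (31.6% and 34.2%), beside 22.2% and 30.2% of all genes. The median member had a mean level of 12.5 FPKM and the median gene kept 4.65 FPKM, and higher counts give narrower intervals. Of the 20 cytosolic enzymes, 12 had intervals below 1 (60%) and 6 above (30%) after IRF3 siRNA. After YAP siRNA 9 were below (45%) and 4 above (20%). With the counts as TMM-scaled CPM, 10 of the 20 cytosolic log2 ratios were below 0 after IRF3 siRNA and 9 after YAP siRNA. That scaling also moved all genes up, to medians of 0.061 and 0.059. The cytosolic medians there, -0.0076 and 0.033, were still below those of all genes. Of the 16 mitochondrial enzymes, 5 had intervals above 1 (31.25%) and 2 below (12.5%) after IRF3 siRNA, and 9 spanned 1. After YAP siRNA 6 were above (37.5%), 4 below (25%) and 6 spanned 1. Both mitochondrial shares above 1 were over those of all genes and both shares below 1 were under them, but they rest on 16 genes.

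**Figure D2:**
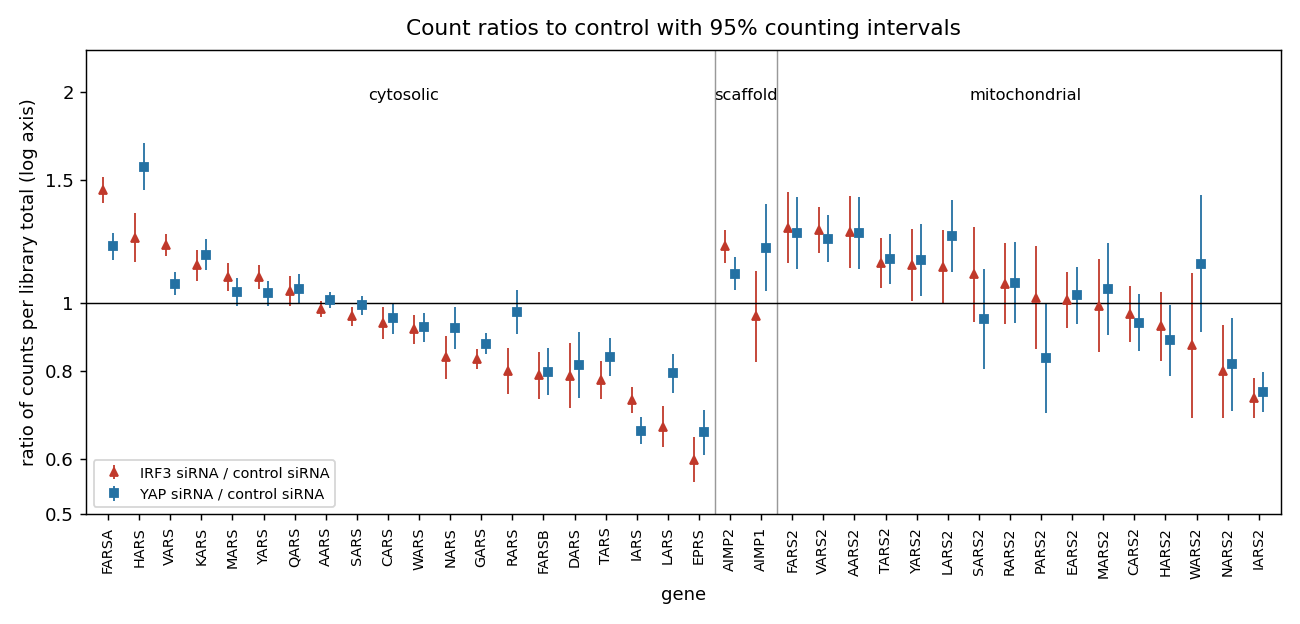
The ratio of counts per library total to control for each member (log axis), with 95% counting intervals as bars; triangles, IRF3 siRNA; squares, YAP siRNA; the line marks a ratio of 1. EPRS, LARS and IARS lie lowest among cytosolic enzymes, FARSA and HARS highest, and IARS2 lies lowest among mitochondrial enzymes.

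On the FPKM plus 1 scale the median log2 ratio of the 20 cytosolic members was -0.10 after IRF3 siRNA and -0.053 after YAP siRNA, and 13 and 12 of them were below 0. The 16 mitochondrial members had medians of 0.055 and 0.075, with 10 above 0 in each comparison. All genes kept had medians of -0.027 and -0.022, and 46.1% and 46.5% of them were above 0. With the deposited counts as TMM-scaled CPM the cytosolic medians were -0.0076 and 0.033, and this scaling moved the median of all genes by 0.088 after IRF3 siRNA and 0.081 after YAP siRNA. The cytosolic median was below the mitochondrial median in both comparisons under each scaling tried. The members are single genes of 1 library per condition, so this difference was not tested.

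Among the enzymes of the multisynthetase complex, EPRS had the lowest ratio to control after IRF3 siRNA. It encodes the fused glutamate and proline enzyme and lies on chromosome 1, 219968601 to 220046658, hg38. EPRS stood at 19.6 FPKM in the control, 11.7 after IRF3 siRNA and 12.8 after YAP siRNA, from 1821, 1167 and 1229 counts, so that both knockdown libraries were below the control. Its count ratio to control was 0.598 (0.555 to 0.644) after IRF3 siRNA and 0.654 (0.608 to 0.704) after YAP siRNA, and its log2 ratios were -0.69 and -0.58. Of all genes kept, 3.30% had a lower ratio than EPRS after IRF3 siRNA and 4.85% after YAP siRNA. IARS, for isoleucine (chromosome 9, 92210207 to 92293756, hg38), had 31.8, 23.1 and 20.9 FPKM. It was also highest in the control, and its count ratios were 0.728 (0.698 to 0.759) and 0.658 (0.630 to 0.688). LARS, for leucine (chromosome 5, 146113038 to 146182660, hg38), had 11.6, 7.75 and 9.24 FPKM, with count ratios of 0.667 (0.623 to 0.713) and 0.795 (0.745 to 0.848), so that the YAP siRNA library lay between the others.

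RARS, for arginine, was at 20.7, 16.6 and 20.1 FPKM, lower than control after IRF3 siRNA and within counting error of it after YAP siRNA (count ratios 0.801 (0.743 to 0.864) and 0.972 (0.904 to 1.05)). DARS had log2 ratios of -0.30 and -0.26. The other complex enzymes were higher than control in both knockdown libraries or close to it. KARS, for lysine, had 30.3, 34.3 and 35.5 FPKM and log2 ratios of 0.17 and 0.22. MARS, for methionine, had 16.6, 18.1 and 17.2 FPKM (0.12 and 0.050), and shares 355 exon bases with the stress gene DDIT3. QARS, for glutamine, had 15.7, 16.3 and 16.4 FPKM (0.056 and 0.063), and the count intervals of QARS included 1 in both comparisons.

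Of the 8 complex enzymes, 5 were below 0 and 3 above in each comparison, with medians of -0.30 and -0.15. Their summed counts made up 0.146% of the control library (0.144 to 0.149), 0.129% after IRF3 siRNA (0.127 to 0.131) and 0.131% after YAP siRNA (0.129 to 0.133). The 12 cytosolic members outside the complex held 0.381% (0.377 to 0.384), 0.381% (0.378 to 0.384) and 0.379% (0.376 to 0.383). As shares of the library total, the lower cytosolic value in the knockdown libraries therefore lay with the complex enzymes. The share of the free enzymes was level within counting error. This reading depends on the scale. With TMM-scaled CPM the medians of the complex enzymes were -0.23 and -0.075, still below 0, with 5 of 8 and 4 of 8 below 0. Those of the free enzymes were 0.023 and 0.049, with 7 of 12 above 0 in each comparison, beside 0.061 and 0.059 for all genes.

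Neither scaffold was lower beyond counting error. AIMP1, which also gives rise to a secreted cytokine, had 4.12, 3.94 and 4.94 FPKM, and its count ratios to control were 0.958 (0.824 to 1.11) and 1.20 (1.04 to 1.39). AIMP2 had 53.9, 65.0 and 59.4 FPKM, with count ratios of 1.21 (1.14 to 1.27) and 1.10 (1.04 to 1.16), so both knockdown libraries were above the control. AIMP2 shares 532 exon bases with EIF2AK1 on the opposite strand, and AIMP1 shares 387 with TBCK. The counting strand was not given in the sources used here. With the counts of overlapping genes summed the log2 ratios were -0.046 and -0.033 for AIMP2 and -0.17 and 0.030 for AIMP1. EEF1E1, the remaining scaffold of the complex and not a member of the list, had 7.12, 8.25 and 8.94 FPKM (log2 ratios 0.19 and 0.29).

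Among the free cytosolic enzymes, the subunits of the phenylalanine enzyme went in opposite directions. This enzyme is a tetramer of alpha chains from FARSA (chromosome 19, 12922479 to 12934037, hg38) and beta chains from FARSB (chromosome 2, 222570536 to 222656337, hg38). FARSA had 44.4 FPKM in the control, 64.3 after IRF3 siRNA and 53.5 after YAP siRNA, and both knockdown libraries were above the control. FARSB had 31.2, 24.6 and 24.9 FPKM, and both were below it. The count ratios to control of FARSA were 1.45 (1.39 to 1.51) after IRF3 siRNA and 1.21 (1.15 to 1.26) after YAP siRNA, and those of FARSB were 0.789 (0.731 to 0.852) and 0.798 (0.739 to 0.862). There were 2.46 FARSA counts for each FARSB count in the control, 4.51 after IRF3 siRNA and 3.71 after YAP siRNA. Of all genes kept, 97.8% had a lower ratio than FARSA after IRF3 siRNA. GC content of the transcripts was 61.6% for FARSA, the highest of the members, and 41.6% for FARSB. With the trend in level, exon length and GC content removed, FARSA had 0.27 and 0.064, and FARSB had -0.24 and -0.29.

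VARS, for valine, had 35.1, 42.5 and 37.4 FPKM, above control beyond counting error in both knockdown libraries (count ratios 1.21 (1.17 to 1.26) and 1.07 (1.03 to 1.11)). YARS, for tyrosine, had 26.9, 29.3 and 27.8 FPKM and log2 ratios of 0.12 and 0.046. GARS was lower than control in both, with count ratios of 0.833 (0.806 to 0.861) and 0.876 (0.847 to 0.906). TARS, for threonine, had 14.3, 11.2 and 12.0 FPKM, also lower in both (log2 ratios -0.34 and -0.24). NARS, for asparagine, had 15.6, 13.0 and 14.4 FPKM (-0.24 and -0.11). CARS, for cysteine, had 14.1, 13.2 and 13.4 FPKM (-0.088 and -0.067), and the abundant AARS and SARS had -0.027 and 0.015 and -0.061 and -0.010, the smallest ratios of the free enzymes after YAP siRNA.

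WARS, the interferon-inducible tryptophan enzyme (chromosome 14, 100333788 to 100376805, hg38), had 13.3 FPKM in the control, 12.2 after IRF3 siRNA and 12.3 after YAP siRNA. The control was highest, and the knockdown libraries differed little from each other. Its count ratio to control was 0.918 (0.876 to 0.962) after IRF3 siRNA and 0.924 (0.882 to 0.969) after YAP siRNA, and the ratio of IRF3 siRNA to YAP siRNA was 0.993 (0.947 to 1.04), an interval that includes 1. Log2 ratios to control were -0.11 and -0.11, and 39.0% and 38.4% of genes kept had lower ratios. WARS shares 287 exon bases with WDR25 and 385 with a clone-based gene that had no counts.

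The cytosolic genes known as targets of the amino acid response (AARS, CARS, EPRS, GARS, IARS, LARS, MARS, NARS, SARS, TARS, WARS and YARS) were compared with the other 8. Of these 12, 10 were below 0 after IRF3 siRNA and 9 after YAP siRNA, with medians of -0.18 and -0.11. The other 8 had 5 members above 0 in each comparison, with medians of 0.12 and 0.077. With TMM-scaled CPM the medians of the 12 were -0.088 and -0.026, and 7 of the 12 were below 0 in each. ATF4 itself had 173, 201 and 210 FPKM (log2 ratios 0.22 and 0.28), and ASNS, asparagine synthetase and a classical ATF4 target, had 66.9, 62.4 and 63.3 FPKM (-0.099 and -0.079). Other stress response genes went in both directions. PHGDH (0.44 and 0.32) and TRIB3 (0.42 and 0.29) were higher, and CEBPB (-0.45 and -0.39) and STC2 (-0.45 and -0.48) were lower. Of the 21 on a fixed list that includes ATF4 and ASNS, 7 were above 0 after IRF3 siRNA and 10 after YAP siRNA.

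The element through which ATF4 and C/EBP factors bind such genes was looked for in RefSeq promoter windows (GRCh38.p14, from 250 bases before to 50 after an annotated start). Windows were present for 32 of the 38 members. None was available for AARS2, DARS, LARS, VARS, VARS2 and YARS, which were not searched. The letters TGATGNAA, on either strand, occurred in a window of 8 of these 32 members, beside 4.46% of all 27305 symbols with windows. Of the 16 cytosolic enzymes with windows 7 held it, and of the 14 mitochondrial enzymes 1 did. The sites are shown because they are what these members share in sequence; each line gives the strand of the gene, 5′ to 3′, with the element in capitals and 20 bases on each side. Lengths are equal, and positions are on GRCh38.p14.
AARS (chr16:70289666-70289713, minus strand): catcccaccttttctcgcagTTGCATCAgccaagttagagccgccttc
CARS (chr11:3057398-3057445, minus strand): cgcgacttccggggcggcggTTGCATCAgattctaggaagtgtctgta
GARS (chr7:30594825-30594872, plus strand): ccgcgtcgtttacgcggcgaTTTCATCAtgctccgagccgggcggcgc
IARS (chr9:92293683-92293730, minus strand): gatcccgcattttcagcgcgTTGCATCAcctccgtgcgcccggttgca
MARS (chr12:57488044-57488091, plus strand): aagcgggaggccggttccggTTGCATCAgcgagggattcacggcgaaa
NARS (chr18:57621795-57621842, minus strand): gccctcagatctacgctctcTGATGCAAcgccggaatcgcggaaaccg
TARS (chr5:33440947-33440994, plus strand): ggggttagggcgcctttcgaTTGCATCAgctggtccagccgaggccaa
YARS2 (chr12:32756067-32756114, minus strand): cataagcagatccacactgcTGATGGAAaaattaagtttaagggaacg
In AARS, CARS, IARS, MARS and TARS the capitals spell TTGCATCA, the reverse complement of the TGATGCAA in NARS. The match begins 2 bases before the annotated start in CARS, 4 before in MARS and 13 before in IARS, but 187 before it in AARS.

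The 7 cytosolic enzymes with the element had a median log2 ratio of -0.24 after IRF3 siRNA and -0.11 after YAP siRNA, with 6 and 5 of them below 0. The 9 cytosolic enzymes whose windows lacked those letters had -0.061 and -0.010, with 5 below 0 in each comparison. The values of the holders ran from -0.44 (IARS) to 0.12 (MARS) after IRF3 siRNA and from -0.58 (IARS) to 0.050 (MARS) after YAP siRNA, so members with the same letters went in both directions. Those of the 9 others were spread more widely, from -0.69 (EPRS) to 0.53 (FARSA) and from -0.58 (EPRS) to 0.57 (HARS). Median GC content was 47.4% for the transcripts of the holders and 49.8% for the others. The interferon response element, searched as GAAA, any 2 bases and GAAA on either strand, was found for EARS2 and WARS, 2 of 32 members beside 4.38% of all symbols. The TEAD motif GGAATG was found for AIMP1, CARS, FARS2, WARS2 and YARS2, 5 of 32 beside 16.7%. A match is a description of the letters only, and a window without a match says nothing of the factor.

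HARS and HARS2 encode the histidine enzymes of the cytosol and of mitochondria and lie head to head on chromosome 5 (140673173 to 140692024 and 140691426 to 140699291, hg38). Their RefSeq starts are 85 bases apart. Their promoter windows share 184 bases at chr5:140691321-140691504 (GRCh38.p14, plus strand), shown because they hold both starts. Capitals mark the stretch from the start of HARS, which is read leftwards, to the start of HARS2, which is read rightwards.
HARS and HARS2 shared window: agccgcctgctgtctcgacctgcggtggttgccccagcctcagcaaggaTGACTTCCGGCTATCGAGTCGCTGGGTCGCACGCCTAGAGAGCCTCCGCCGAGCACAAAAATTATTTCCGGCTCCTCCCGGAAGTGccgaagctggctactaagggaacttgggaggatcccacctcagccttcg
The exons of both genes overlap by 437 bases in GENCODE release 29.

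HARS had 6.24 FPKM in the control, 7.74 after IRF3 siRNA and 9.77 after YAP siRNA, the largest ratio of any member after YAP siRNA (log2 ratio 0.57, count ratio 1.57 (1.45 to 1.69)). With IRF3 siRNA its count ratio was 1.24 (1.15 to 1.34). HARS2 had 6.27, 5.81 and 5.55 FPKM, with count ratios of 0.928 (0.828 to 1.04) and 0.885 (0.788 to 0.994). By FPKM the order of the libraries was thus opposite in these neighbours: HARS was lowest in the control and highest after YAP siRNA, and HARS2 was the reverse. For HARS2 only the YAP siRNA library differed from control beyond counting error. Its ratio of IRF3 siRNA to YAP siRNA was 1.05 (0.933 to 1.18), so its full order was not resolved. Since they overlap, also with WDR55 and ZMAT2, their reads cannot be fully told apart without a strand setting. The summed counts of the 5 overlapping genes were 3426, 4191 and 4340, and gave log2 ratios of 0.18 after IRF3 siRNA and 0.28 after YAP siRNA for the whole cluster. These are values of the pooled counts and not of HARS, so they do not give the size of the HARS change itself.

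Among the mitochondrial enzymes, IARS2, for isoleucine, had the highest FPKM and the lowest ratio. It lies on chromosome 1, 220094102 to 220148041, hg38, and had 31.7 FPKM in the control, 23.2 after IRF3 siRNA and 23.7 after YAP siRNA. The knockdown libraries were nearly level with each other and below the control, with count ratios of 0.733 (0.686 to 0.783) and 0.747 (0.699 to 0.798). NARS2, for asparagine, was the other mitochondrial member with both intervals below 1, at 5.16, 4.13 and 4.22 FPKM (log2 ratios -0.26 and -0.24). PARS2, for proline, had 8.34, 8.50 and 6.96 FPKM, within counting error of control after IRF3 siRNA and lower after YAP siRNA, where its count ratio was 0.835 (0.698 to 0.997).

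The mitochondrial enzymes above control in both knockdown libraries included those for phenylalanine, alanine, valine, threonine and tyrosine. FARS2 had 12.8, 16.4 and 16.1 FPKM, with count ratios of 1.28 (1.14 to 1.44) and 1.26 (1.12 to 1.42). AARS2 had 7.78, 9.83 and 9.79 FPKM, and its log2 ratios were 0.30 and 0.30. VARS2 had 6.89, 8.76 and 8.51 FPKM (0.31 and 0.27), and shares 1858 exon bases with GTF2H4 on the same strand. With that cluster summed the log2 ratios of VARS2 were 0.23 and 0.11. TARS2 had 8.98, 10.2 and 10.4 FPKM (0.17 and 0.19) and YARS2 had 10.9, 12.4 and 12.6 FPKM (0.17 and 0.19). All 5 had counting intervals above 1 in both comparisons.

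LARS2, for leucine, had 4.35, 4.89 and 5.42 FPKM, and its interval lay above 1 after YAP siRNA (1.25 (1.11 to 1.41)). The remaining mitochondrial enzymes showed no difference from control beyond counting error. RARS2 had 10.8, 11.5 and 11.5 FPKM and MARS2 had 7.93, 7.87 and 8.31 FPKM. EARS2, for glutamate, had 4.65, 4.70 and 4.78 FPKM and CARS2 had 2.91, 2.81 and 2.73 FPKM. SARS2 had 2.76, 3.04 and 2.62 FPKM from 303, 357 and 297 counts, and overlaps the mitochondrial ribosomal protein gene MRPS12. For WARS2 there were 149, 139 and 175 counts, and its intervals were wide (0.871 (0.686 to 1.10) and 1.14 (0.910 to 1.43)).

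Cytosolic and mitochondrial enzymes of the same amino acid were then compared within each library. For 13 amino acids with a single cytosolic and a single mitochondrial gene (leaving out EPRS, FARSA and FARSB), the cytosolic level was the higher in 12 pairs in every library, and the median ratio of FPKM was 2.67 in the control, 2.36 after IRF3 siRNA and 2.20 after YAP siRNA. In FPKM the ratio was widest for serine, where SARS exceeded SARS2 by 36.0, 31.4 and 37.6 times, and for alanine, where AARS exceeded AARS2 by 18.9, 14.7 and 15.2 times. It was near 1 for isoleucine, at 1.0, 0.996 and 0.884, and IARS and IARS2 were lower together in both knockdown libraries. For leucine it narrowed from 2.67 in the control to 1.58 and 1.70, and for threonine from 1.60 to 1.09 and 1.16. For histidine it widened from 0.996 to 1.33 and 1.76. The length that the authors used to scale each gene enters these ratios between genes, but not their change between libraries.

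**Figure D3:**
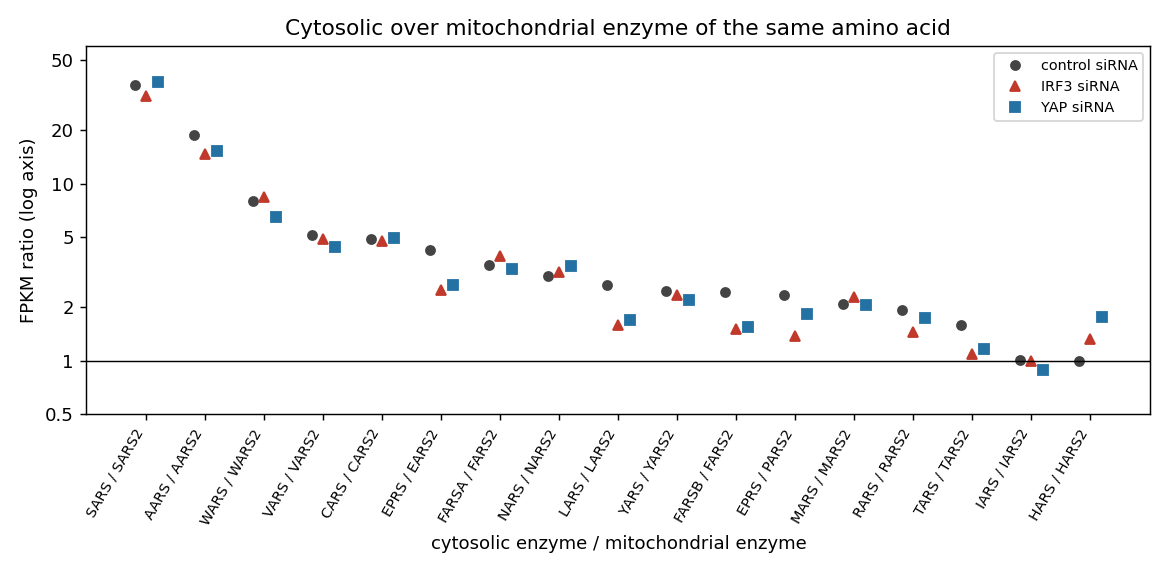
The FPKM of the cytosolic enzyme over that of the mitochondrial enzyme of the same amino acid for 17 combinations (log axis; circles, control siRNA; triangles, IRF3 siRNA; squares, YAP siRNA), in order of the control value; the line marks a ratio of 1. The pairs of EPRS with EARS2 and PARS2, FARSB with FARS2, LARS with LARS2 and TARS with TARS2 lie lower in the knockdown libraries, and HARS with HARS2 lies higher.

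The direct comparison of the knockdown libraries leaves out the control library. The median absolute log2 ratio of all members was 0.063 there, beside 0.17 and 0.19 against control, and all genes kept had 0.099, 0.20 and 0.18. Intervals lay above 1 for 7 members (18.4%) and below 1 for 11 (28.9%), beside 16% and 15.6% of all genes. The cytosolic median was -0.043 (15 of 20 below 0) and the mitochondrial median -0.012 (9 of 16 below 0), with -0.0070 for all genes. The mitochondrial value turned to 0.0080 with the trend in gene properties removed. FARSA was the highest after IRF3 siRNA relative to YAP siRNA, at 0.26 on the log2 scale (count ratio 1.20 (1.16 to 1.25)). PARS2 (0.25) and VARS (0.18) followed. HARS was the lowest at -0.30 (0.792 (0.738 to 0.850)), followed by AIMP1 (-0.27) and RARS (-0.26). WARS2 (-0.24) and LARS (-0.23) were also lower after IRF3 siRNA, and IARS was higher (0.14).

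By catalytic class, the 18 class I genes had medians of 0.0016 and 0.048 in the 2 comparisons with control, and the 17 class II genes had -0.027 and -0.053, with EPRS, which holds an enzyme of each class, left out. Base composition did go with the ratios. Across the 20 cytosolic genes the Spearman correlation of the log2 ratio with the GC content of the transcripts was 0.82 after IRF3 siRNA and 0.76 after YAP siRNA, and across the 16 mitochondrial genes it was 0.55 and 0.32. Across 11066 genes kept it was 0.41 and 0.28. All points share the same 3 libraries, and genes are not replicates. Split at 45% GC content, a value chosen after the ratios were seen, the 13 members under it had medians of -0.30 and -0.24, and 12 and 10 of them were below 0. All genes on that side had medians of -0.20 and -0.15, with 74.7% and 68.8% below 0. The 25 members at or over 45% had medians of 0.12 and 0.060, with 17 above 0 in each comparison, and all genes on that side had 0.023 and 0.011, with 46.6% and 48.0% below 0.

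The 5 complex enzymes that were lower, DARS, EPRS, IARS, LARS and RARS, had GC contents from 40.6% to 43.2%, and the 3 that were not, KARS, MARS and QARS, had from 47.2% to 55.3%. IARS2 (42.4%) and NARS2 (42.7%) were on the low side too, whereas RARS2 (41.4%) had log2 ratios of 0.085 and 0.090. An additive trend in level, exon length and GC content over all genes accounted for 23.3% of the variance after IRF3 siRNA and 19.0% after YAP siRNA. With that trend removed, EPRS had -0.52 and -0.45, IARS -0.24 and -0.43, LARS -0.26 and -0.081, and IARS2 -0.32 and -0.35. DARS had -0.14 and -0.16, NARS2 -0.099 and -0.14, and RARS -0.20 and 0.0008, the last of these no longer below 0. The part of GC content in these ratios was not tested.

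**Figure D4:**
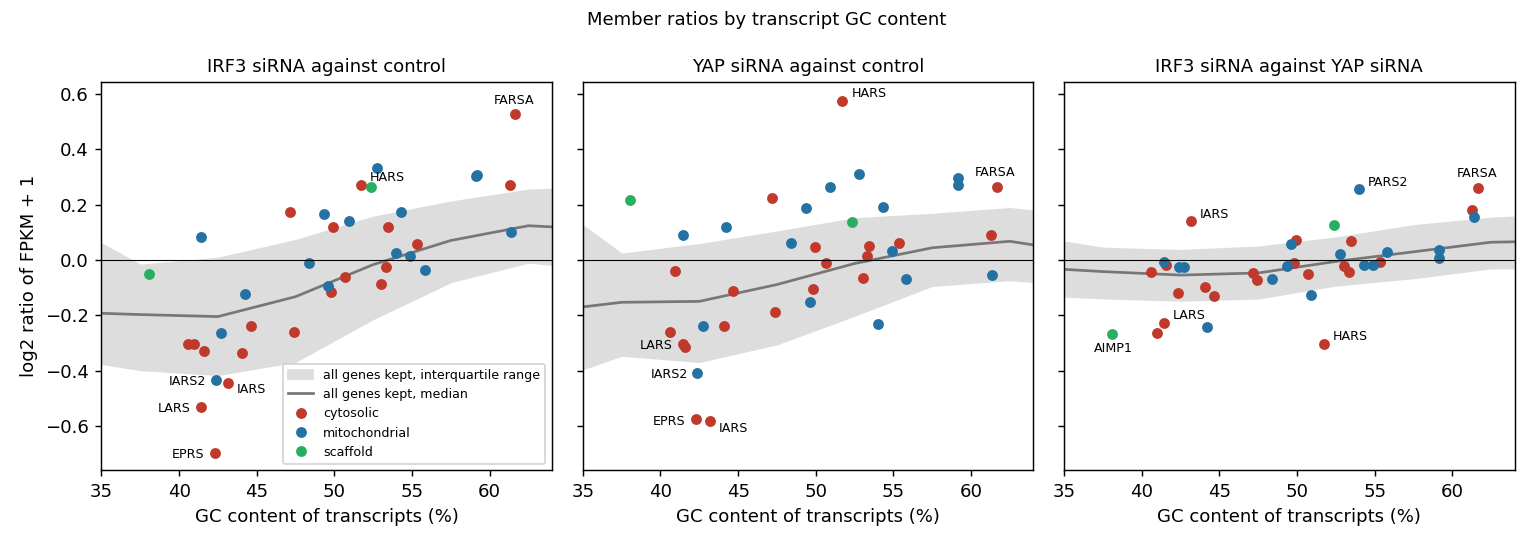
Log2 ratios of FPKM plus 1 for each member against the GC content of its transcripts (%), for the 3 comparisons; red, cytosolic; blue, mitochondrial; green, scaffold; grey line and band, median and interquartile range of all genes kept in intervals of GC content. Members under 45% GC content lie mostly below 0, as do other genes there, and EPRS lies below the grey band in both comparisons with control.

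Other genes of tRNA charging were taken from fixed lists. Of the 10 partner genes found by symbol, which include the scaffold EEF1E1, 7 were kept. Of these 7, 5 were above 0 in each comparison with control and none was called (medians 0.065 and 0.13). They include GATC, a subunit of the amidotransferase that makes mitochondrial glutaminyl-tRNA, at 5.19, 6.15 and 6.10 FPKM, and MTFMT, which formylates the mitochondrial initiator tRNA, at 3.51, 2.85 and 3.35 FPKM. Of 32 genes for tRNA maturation and export 27 were kept, with 14 above 0 after IRF3 siRNA and 15 after YAP siRNA, medians of 0.057 and 0.046, and none called. XPOT, the exportin of tRNA, was lowest among them at 16.6, 10.8 and 11.0 FPKM (log2 ratios -0.58 and -0.56), and ADAT3, of the deaminase that makes inosine at the wobble position, was highest at 2.20, 3.68 and 3.63 FPKM (0.55 and 0.53).

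The 10 elongation factor genes, which carry charged tRNA, move the ribosome or exchange the nucleotide of the carrier, had medians of 0.23 and 0.17, with 7 above 0 after IRF3 siRNA and all 10 after YAP siRNA, and none was called. EEF1A1, which delivers charged tRNA in the cytosol, had 249, 230 and 337 FPKM, lowest after IRF3 siRNA and highest after YAP siRNA. TUFM, its mitochondrial counterpart, had 158, 201 and 174 FPKM. The 21 stress response genes had medians of -0.049 and -0.079, which turned to 0.052 and 0.0093 with TMM-scaled CPM. The largest ratio among them was that of CHAC1, a glutathione-degrading enzyme, at 12.2, 10.9 and 5.77 FPKM (log2 ratios -0.14 and -0.96).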

How the data were processed

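Values came from 1 table with an FPKM column and a column of raw counts for each of the 3 libraries. The submitters' processing notes name TopHat2 2.0.9 and hg38, while gene counter, annotation release and strand were not given in the sources used here. Deposited FPKM values are scaled by gene length and column total: 100% of 45223 values checked were within 1% of the count so scaled. The deposited counts were used as they stand.

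Log2 ratios were taken on FPKM plus a pseudocount of 1, which understates changes of low genes, for genes with a mean of at least 1 FPKM. Count ratios carry exact conditional binomial intervals at 95%. With 1 library per group no test across samples was made. The planned rule named every member. The members and lists were chosen with earlier results of these data known.

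Exon overlap, exon length and GC content came from GENCODE release 29, where 35 of the 38 members had the deposited coordinates (FARS2, HARS and HARS2 differed). Trends were removed with splines of 4 degrees of freedom. Promoter windows are from RefSeq (GRCh38.p14). A planned comparison of protein sequences was not made. Alternatives were a pseudocount of 0.1, no filter or one of 5 FPKM, a 1.5-fold threshold, centring on the median gene, TMM-scaled CPM, trend removal and summing of overlapping genes. TMM came from edgeR 4.0.16 in R 4.3.3, and all else from Python 3.11.15 with pandas 2.3.3, patsy 1.0.2, scipy 1.17.1 and numpy 2.4.6.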

Additional observations from a re-analysis of the deposited data

How the results depend on the processing

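Medians of the cytosolic and mitochondrial members, and the difference between them, were recomputed in 63 combinations of comparison and alternative. Of these, 61 moved by less than the counting error of a typical member. This count is a weak check of stability. After IRF3 siRNA against control that limit was 0.17 for the mitochondrial median of 0.055 and 0.18 for the difference of -0.16. After YAP siRNA it was 0.17 for a median of 0.075 and 0.19 for a difference of -0.13. These values could vanish and still stay within the limit. Removing the filter changed no member, and centring cannot change a difference. With TMM-scaled CPM the cytosolic median was -0.0076 after IRF3 siRNA and 0.033 after YAP siRNA against control. Between the knockdowns the mitochondrial median changed sign with the 5 FPKM filter (0.0002) and with the trend removed (0.0080). The number of members called differed in 1 of 48 combinations: at 1.5-fold, 1 member (EPRS) was lower after IRF3 siRNA. For the moved values and sign changes the cause was not tested. No replicate could be left out, and no paired analysis was possible because each group has 1 library.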

Other observations

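The gene length behind the deposited FPKM differed from the length of the transcript with the longest coding sequence in GENCODE release 29 by a factor that varied among members. It was the same length for FARSB, MARS2 and PARS2, 6.30 times as long for WARS (19467 against 3092 bases) and 12.3 times as long for CARS2 (23059 against 1879 bases). The median factor was 2.67 for cytosolic and 1.88 for mitochondrial enzymes. Scaled by the coding transcript instead, an alternative chosen after seeing the data, SARS rather than AARS had the highest level (294 against 246 FPKM units), CARS2 moved from place 36 to place 19 of the 38 members and EARS2 from 33 to 17, while FARSB moved from 9 to 23. On that scale the cytosolic enzyme was above the mitochondrial enzyme in all 13 pairs in every library, HARS and IARS included. Alanine rather than serine had the widest ratio in the control (26.6 against 22.4). After IRF3 siRNA tryptophan had the widest ratio (23.1), beside 20.7 for alanine and 19.5 for serine. After YAP siRNA serine had the widest (23.4). IARS2, the highest mitochondrial member by FPKM, was then at 34.2, below EARS2 (37.4) and CARS2 (34.5). WARS2 was lowest on both scales. Ratios between libraries do not depend on this length except through the pseudocount.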
